A study of Mus musculus with 22 samples.

Results

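Double-positive thymocytes were compared between mice with and without E2a at 4 weeks and at 8 weeks of age, and the change of the knockout effect between the ages is described here over 12 of the 22 RNA-seq libraries of the study. The libraries were taken by their labels: every untransplanted Vav control and Vav knockout library of either age, 3 in each of 4 groups. The cells are described as CD45.1+ CD4+CD8+ thymocytes, and no treatment is named for these mice. The knockouts had the genotype VavCre E2aF/F, in which Cre recombinase under Vav regulatory sequences, active in blood cells from their stem cells on, deletes a floxed E2a. The controls had the genotype E2aF/F at both ages, with no Cre named, so the deletion and the presence of Cre cannot be told apart. The labels number the libraries as replicates and name no animals, so the tests rest on the spread among numbered libraries. The knockouts of each age differed in their leading receptor segment, given below, and are not repeats of 1 sample, while the spread among controls may be partly technical. Of 43430 genes, 11297 reached 1 FPKM (fragments per kilobase and per M reads) in at least 3 libraries of either age and were tested. The effect at an age is the mean log2(FPKM + 1) of the knockouts minus that of the controls, and the difference of effects is the effect at 8 weeks minus the effect at 4 weeks. A positive difference means that the knockouts stood higher against their controls at 8 than at 4 weeks. A gene was called where limma's interaction test gave a Benjamini-Hochberg adjusted p under 0.05 over all tested genes.

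E2a, with the gene symbol Tcf3, encodes E proteins, transcription factors of the basic helix-loop-helix family that bind the E-box, CANNTG, and are held back by Id proteins. In the thymus they favour rearrangement of the T cell receptor genes and restrain the proliferation of precursors. Double-positive thymocytes carry a rearranged beta chain, use the recombinase of Rag1 and Rag2 to rearrange the alpha chain, and are mostly small resting cells awaiting selection. Mice without E2a are known to develop T cell leukaemia, a disease in which Notch1 signalling, Myc and a gain of chromosome 15 are recurrent.

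Depth and sex differed between the libraries compared. Totals inferred from the steps between low FPKM values, of which 50.8% to 55.9% came out as whole reads within 0.03, were 31.1 to 37.5 M reads at 4 weeks and 10.8 to 21.1 M at 8 weeks (M for 1e6), and the median SE of an effect was 0.0859 and 0.11 on the log2 scale. By Xist, expressed from the inactive X chromosome, and Ddx3y, on the Y chromosome, each genotype had 1 male (replicate 1) and 2 female libraries at 4 weeks. At 8 weeks all 3 controls were female, with 101 to 117 FPKM of Xist and 0 of Ddx3y, and all 3 knockouts male, with 10.1 to 11.1 FPKM of Ddx3y. Sex and genotype therefore cannot be told apart at 8 weeks. Between the sexes at 4 weeks 6 genes were called, Xist, Ddx3y, Kdm5d, Uty, Eif2s3y and Gm29650, and a sex term estimated from those libraries is used below as an alternative. Knockout replicate 2 at 4 weeks stood toward the 8-week pattern: over the genes called higher in the difference its median was 0.10 from that of the other 4-week knockouts on the log2 scale, and over those called lower -0.081. Without it 1149 genes were called higher and 1165 lower. Tcf3 (ENSMUSG00000020167, mm10 chr10:80409514-80433647, minus strand) checked the genotype labels. It had 7.47, 6.39 and 6.73 FPKM in the controls and 1.36, 1.39 and 1.15 FPKM in the knockouts at 4 weeks, and 7.59, 7.52 and 7.49 FPKM in the controls and 2.13, 1.23 and 2.01 FPKM in the knockouts at 8 weeks, without overlap at either age. Its effect was -1.77 at 4 weeks and -1.63 at 8 weeks, and the difference of effects was 0.14 (SE 0.166, adjusted p = 0.592), which did not pass.

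The knockout effect was broader and larger at 8 weeks. The difference of effects was called higher for 983 genes (8.7%) and lower for 982 (8.69%), 17.4% of those tested in all, and by 1 or more on the log2 scale for 126 and 176. At 4 weeks 829 genes (7.34%) were higher and 663 (5.87%) lower in the knockouts, and at 8 weeks 2512 (22.2%) and 2505 (22.2%). The 4-week counts fell to 394 higher and 292 lower without the first control, 316 and 258 without the second, 329 and 266 when control replicate 3 was dropped, and to 519 and 416 without knockout replicate 3. The SD of the effects over genes was 0.36 at 4 weeks and 0.70 at 8 weeks on the log2 scale. In most called differences the fitted effect kept its sign and was larger at 8 weeks, although it was often not called at 4 weeks: 846 of the 983 and 760 of the 982 were of this kind. Opposite signs were seen for 135 and 213 genes. Effects called at both ages in opposite directions were few: 3 genes lower at 4 and higher at 8 weeks, H1f0 among them, and 2 genes higher at 4 and lower at 8 weeks. Of the genes called higher in the difference, 281 were higher at both ages and 677 at 8 weeks alone, and of those called lower 195 were lower at both and 733 at 8 weeks alone. Another 27 genes with a lower difference were higher in the knockouts at 4 weeks and not called at 8 weeks. The change lay mostly in the knockouts, whose median change between the tables was 0.46 for genes called higher and -0.43 for genes called lower, against -0.13 and 0.16 in the controls, although the tables were normalized separately and these changes have no test. In 152 and 182 of the genes, the controls moved more than the knockouts.

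**Figure D1:**
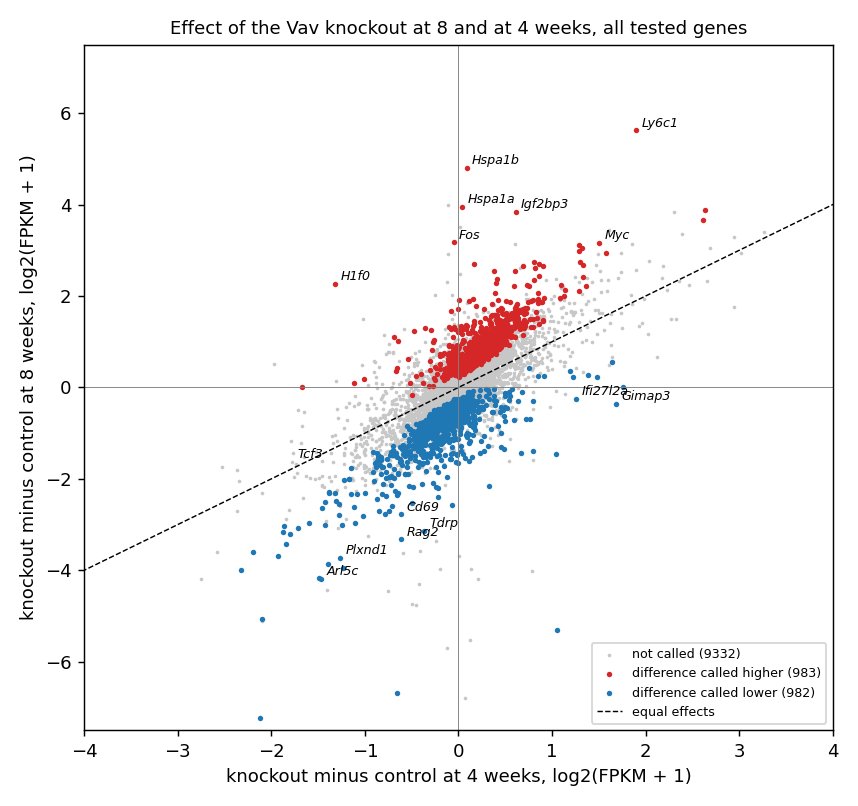
Knockout minus control at 4 weeks (x axis) against 8 weeks (y axis) for every tested gene, in log2(FPKM + 1), with genes called in the difference in red (983 higher) and blue (982 lower); 1 gene lies outside the axes. Red points lie above the dashed line of equal effects and blue points below it, and Tcf3 lies close to the line.

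The sex term left 587 genes called higher and 525 lower, of which 541 and 486 were among the calls above, and all 983 and 982 genes kept their sign. This term takes the sex effect to be the same at both ages. It cannot remove or show a sex effect particular to 8 weeks, so calls kept with it do not set sex apart from genotype there. Scaled to the same FPKM sum, 621 were higher and 1204 lower (34% higher in place of 50%), with a shift of -0.12 in the median 8-week effect and of -0.066 in the median difference on the log2 scale. The counts also moved by over 1.5 times with single libraries left out: 524 and 487 without control replicate 2 and 540 and 511 without control replicate 3 at 4 weeks, 616 and 618 without knockout replicate 1 at 4 weeks, 641 and 610 without control replicate 2 at 8 weeks, and 622 lower without control replicate 1 at 8 weeks.

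The clearest group was ribosome biogenesis and MYC targets, the genes that make ribosomes and polyamines in growing cells. Of its 22 tested members 20 were called higher in the difference and none lower, with a median difference of 0.77 against -0.011 over all genes tested. Their median effect was 0.51 at 4 weeks, with 16 of 22 called higher, and 1.22 at 8 weeks, with 22 of 22. With the sex term 17 members were called higher, and 17 to 21 with any library left out. Srm, the spermidine synthase, had 4.06, 5.59 and 5.14 FPKM in the controls and 9.38, 13.9 and 11.9 FPKM in the knockouts at 4 weeks, and 4.75, 4.07 and 3.71 FPKM in the controls and 23.8, 24.2 and 22.2 FPKM in the knockouts at 8 weeks. Its 4-week knockouts lay between the controls and the 8-week knockouts, and the difference of effects was 1.15 (SE 0.192, adjusted p = 0.00459). Mybbp1a, a nucleolar MYB-binding protein, had 8.59, 12.6 and 9.58 FPKM in the knockouts at 4 weeks and 19.6, 19.5 and 20.8 at 8 weeks, with a difference of 1.08 (adjusted p = 0.00239). Polr1b, a core subunit of RNA polymerase I, had 2.70, 4.82 and 3.42 FPKM in the knockouts at 4 weeks and 7.68, 7.40 and 6.92 at 8 weeks, with a difference of 1.04 (adjusted p = 0.00581). Npm1 (1.02) and Rrp12 (1.01), of nucleoli and ribosome assembly, were next, and Nop56 (0.15) and Nop16 (0.47) did not pass. Myc (ENSMUSG00000022346, mm10 chr15:61985391-61990374, plus strand), the transcription factor that drives this programme, had 0.957, 1.09 and 0.937 FPKM in the controls and 3.56, 6.49 and 4.34 FPKM in the knockouts at 4 weeks. At 8 weeks it had 0.945, 0.734 and 0.787 FPKM in the controls and 16.5, 13.7 and 15.8 FPKM in the knockouts. All 3 knockouts were above all controls at each age, and the 8-week knockouts above every 4-week knockout. The effect was 1.51 at 4 weeks and 3.16 at 8 weeks, and the difference 1.66 (SE 0.215, adjusted p = 0.0018). Hmga1, a chromatin protein of growing cells, had a smaller difference of 0.59 (adjusted p = 0.00364), and Tfrc, the transferrin receptor that takes up iron, one of 1.20 (adjusted p = 0.00762).

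Cell cycle genes were mixed, and most did not pass. Of 38 cell cycle genes 11 were called higher in the difference (29%) and 3 lower (7.9%), with a median of 0.073. Over all tested genes the shares were 8.7% and 8.69%. The 11 were all 6 subunits of the replicative helicase, Mcm2 to Mcm7 (differences of 0.54 to 0.91), the origin-licensing factor Cdc6 (0.60), Rrm1 (0.45) of ribonucleotide reductase, the transcription factor E2f1 (0.50), the kinase gene Cdk6 and the inhibitor gene Cdkn1a. No member of the helicase was called at 4 weeks, and all 6 were called higher at 8 weeks. Mki67, Top2a, Plk1, Ccnb1 and Cdk1, of mitosis and proliferation, had differences between -0.098 and 0.20 and did not pass. Nor did other genes of DNA synthesis and its start: Pcna (0.11), Rrm2 (-0.095), Tyms (0.21), Cdk2 (0.17), Ccne1 (-0.23) and Ccne2 (0.04). Cdkn1a, encoding the kinase inhibitor p21, had 1.02, 1.23 and 1.42 FPKM in the controls and 0.193, 1.15 and 1.32 FPKM in the knockouts at 4 weeks, overlapping. The 8-week values were 0.826, 1.10 and 0.769 FPKM in the controls and 3.15, 5.21 and 2.56 FPKM in the knockouts, and the difference was 1.54 (SE 0.363, adjusted p = 0.0182). Ccnd2, encoding cyclin D2, a partner of Cdk6, moved the other way, with 2.67, 1.12 and 2.03 FPKM in the knockouts at 4 weeks and 0.247, 0.244 and 0.0932 at 8 weeks, and its difference was -1.28 (SE 0.238, adjusted p = 0.0073). The inhibitor genes Cdkn1b (-0.76) and Cdkn2c (-0.98) were also called lower. Cdk6 (1.02, adjusted p = 0.0479) lost its call with the sex term, under same-sum scaling and in 10 of 12 fits with a library left out. The 11 higher calls were 7 without control replicate 2 or 3 or knockout replicate 1 at 4 weeks or control replicate 2 at 8 weeks, and the 3 lower calls 5 without knockout replicate 2 at 4 weeks.

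Genes of the double-positive stage itself went down further. Of 18 tested members 12 were called lower in the difference and 1 higher, with a median difference of -0.67. Their median effect was -0.30 at 4 weeks, with 7 members called lower, and -0.95 at 8 weeks, with 14. With the sex term 9 were called lower, and 9 to 12 with any library left out. In bulk RNA fewer cells of this stage and less RNA per cell cannot be told apart. The summed FPKM of the 19 listed genes was 4900 to 5060 in the controls and 3521 to 4194 in the knockouts at 4 weeks, and 4915 to 5285 and 2389 to 2703 at 8 weeks. Rag2 (ENSMUSG00000032864, mm10 chr2:101624718-101632529, plus strand), a subunit of the recombinase, had 61.2, 65.0 and 59.3 FPKM in the controls and 40.6, 35.4 and 45.0 FPKM in the knockouts at 4 weeks. In the 8-week table Rag2 had 59.4, 63.0 and 61.5 FPKM in the controls and 5.31, 4.53 and 5.93 FPKM in the knockouts. The groups did not overlap at either age, and the effect went from -0.61 to -3.32, a difference of -2.71 (SE 0.136, adjusted p = 3.39e-06). Rag1, its neighbour and partner, had a smaller difference of -0.93 (adjusted p = 0.00459), with 884, 784 and 892 FPKM in the knockouts at 4 weeks and 453, 330.2 and 377 at 8 weeks. The promoter of each, the 250 bases before the RefSeq start (GRCm38.p6, the build of mm10), is shown because E proteins bind CANNTG, in capitals.

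Rag2: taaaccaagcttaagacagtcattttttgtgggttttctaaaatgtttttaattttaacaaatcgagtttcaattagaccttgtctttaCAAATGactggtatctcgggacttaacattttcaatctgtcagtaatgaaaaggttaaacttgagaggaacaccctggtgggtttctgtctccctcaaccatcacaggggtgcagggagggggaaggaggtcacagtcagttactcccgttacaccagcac

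Rag1: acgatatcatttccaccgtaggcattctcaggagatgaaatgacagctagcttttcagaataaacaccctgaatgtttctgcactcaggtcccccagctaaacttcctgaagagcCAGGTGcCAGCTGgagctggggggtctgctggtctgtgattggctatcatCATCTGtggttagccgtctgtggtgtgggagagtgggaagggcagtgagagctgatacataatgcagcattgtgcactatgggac

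The Rag2 promoter (chr2:101624462-101624711, plus strand) held 1 match, beginning 161 bases before the start, and the Rag1 promoter (chr2:101649533-101649782, minus strand) held 3, at 135, 128 and 85 bases before it. The motif reads the same on both strands and was found in 66.2% of the 32851 RefSeq promoters of that length and in 56.7% of the 9831 of tested genes. A promoter was in the table for 712 of the 983 genes called higher and 689 of the 982 called lower, too small a part of them for a comparison over the called genes, which is void.

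Plxnd1, a semaphorin receptor that guides thymocyte migration, had 162, 164 and 172 FPKM in the controls and 82.4, 59.5 and 65.2 FPKM in the knockouts at 4 weeks, and 197, 208 and 206 FPKM in the controls and 13.8, 21.9 and 10.03 FPKM in the knockouts at 8 weeks. Each knockout at 8 weeks was below each at 4 weeks, and the difference was -2.46 (SE 0.301, adjusted p = 0.00137). The coreceptor genes kept high levels but were called lower: Cd4, with a difference of -0.85 (adjusted p = 0.00247), had 282, 237 and 278 FPKM in the knockouts at 4 weeks and 186, 165 and 163 at 8 weeks, against 410.0, 422 and 460.3 FPKM in the 8-week controls. Cd8a (-0.63) and Cd8b1 (-0.96) had effects of -0.099 and -0.16 at 4 weeks, not called, and of -0.73 and -1.12 at 8 weeks, both called. Ccr9, the chemokine receptor of thymocytes, differed by -1.06 (adjusted p = 0.0148), a call lost with the sex term. Dntt (-0.16) and Arpp21 (-0.083) did not pass, and Aqp11 (0.74), a water channel, was called higher, but no member of the list was with the sex term or without any one of control replicates 1 to 3 or knockout replicate 3 at 4 weeks or control replicates 1 and 2 at 8 weeks, and 2 were without knockout replicate 1 at 8 weeks. Among called protein-coding genes with a name, the largest negative differences were those of Tdrp (-2.77), Arl5c (-2.71), Rag2 (-2.71) and Plxnd1 (-2.46). Arl5c, a small GTPase of the ARF family, had 172, 188 and 176 FPKM in the controls and 6.84, 18.6 and 5.33 FPKM in the knockouts at 8 weeks, after 134, 131 and 133 and 48.4, 42.9 and 50.8 at 4 weeks. Tdrp had 8.18, 6.67 and 6.29 FPKM in the controls and 5.50, 6.30 and 4.07 FPKM in the knockouts at 4 weeks, and 9.13, 10.2 and 10.2 FPKM in the controls and 0.102, 0.0567 and 0.614 FPKM in the knockouts at 8 weeks, near 0 in the last group. Next came the splicing regulator gene Esrp2 (-2.18), the metalloprotease gene Adamts6 (-2.03) and the adaptor-complex gene Ap3m2 (-1.98), whose 8-week knockouts had at most 1.77, 0.682 and 1.13 FPKM. Gpr171, a G protein-coupled receptor, and Btg2, an antiproliferative gene, had the smallest p with Rag2 among lower genes, with differences of -1.71 (SE 0.107, adjusted p = 2.53e-05) and -1.38 (SE 0.0893, adjusted p = 2.92e-05). Btg2 had 241, 262 and 246 FPKM in the controls and 241, 233 and 245 FPKM in the knockouts at 4 weeks, which overlapped, and 319.7, 312 and 312 FPKM in the controls and 107, 118 and 122 FPKM in the knockouts at 8 weeks, which did not. Aim2, a sensor of DNA in the cytosol, ranked among the 10 largest (-2.19, adjusted p = 0.0464), but its 8-week knockouts spread over 6.31, 1.62 and 0.456 FPKM and the call was lost in 10 of 12 fits with a library left out.

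Some genes of receptor signalling and its response were lower, and most did not pass. Among 16 response and selection genes downstream of the T cell receptor, 6 were called lower (37.5%) and 1 higher (6.25%), with a median difference of -0.62. The shares over all genes were 8.69% and 8.7%. With the sex term 4 were called lower. The 6 were 3 without control replicate 2 or 3 or knockout replicate 3 at 4 weeks or control replicate 2 at 8 weeks, and the 1 was 2 without knockout replicate 2 at 4 or 3 at 8 weeks. Cd69, an early activation marker of selected thymocytes, had 20.1, 20.2 and 16.1 FPKM in the controls and 14.6, 7.57 and 15.1 FPKM in the knockouts at 4 weeks, and 28.1, 29.3 and 24.7 FPKM in the controls and 4.80, 4.16 and 1.34 FPKM in the knockouts at 8 weeks. The 4-week groups did not overlap and were not called, the 8-week groups lay further apart, and the difference was -2.17 (SE 0.459, adjusted p = 0.0122). Egr2 (-0.80) and Egr3 (-1.04), factors induced by receptor signals, Cd28 (-0.79) and Cd27 (-0.55), costimulatory receptors, were called lower, and Ikzf2 (0.95), encoding Helios, was called higher. Egr3 lost its call without control replicate 2 or 3 or knockout replicate 1 or 3 at 4 weeks, or control replicate 2 at 8 weeks. Cd5 (-0.92), Egr1 (-0.70) and Nr4a1 (0.11) did not pass. Of 14 genes of the pre-receptor, CD3 chains and proximal signalling 4 were called lower (28.6%, against 8.69% over all genes) and none higher (median difference -0.30). Among these were the phospholipase gene Plcg1 (-0.43), Cd247, the zeta chain (-0.45, adjusted p = 0.0458), and Ptprc, the phosphatase CD45 (-0.45, adjusted p = 0.0431). The count was 8 without knockout replicate 2 at 4 weeks, and 2 with the sex term or in 10 of the other fits with a library left out. Cd247 and Ptprc lost their calls with the sex term and in 10 of 12 fits with a library left out each. Ptcra, the pre-receptor alpha chain, had effects of -1.21 and -1.32 and a difference of -0.10, not called. Il4ra, the interleukin 4 receptor, had 45.5, 32.4 and 41.4 FPKM in the knockouts at 4 weeks and 13.2, 14.8 and 13.6 at 8 weeks, against 64.7, 63.0 and 67.6 FPKM in the 8-week controls, and its difference was -1.63 (SE 0.146, adjusted p = 0.000292). Of 17 cytokine receptor and SOCS genes 4 were called lower (23.5%, against 8.69% over all genes) and none higher. Il21r (-0.83), Tgfbr2 (-0.45) and Il2rg (-0.40) were called beside Il4ra. Il7r, the interleukin 7 receptor, had a positive difference of 1.21 that did not pass (adjusted p = 0.0765).

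A small group of stress genes was near 0 at 4 weeks and in all controls, and high in the 8-week knockouts. Hspa1b (ENSMUSG00000090877, mm10 chr17:34956436-34959238, minus strand) and Hspa1a, encoding inducible HSP70 chaperones, had the largest differences among called protein-coding genes with a name. The Y-linked genes Eif2s3y (4.11), Ddx3y (3.50) and Kdm5d (2.10) had differences that were not called. FPKM of Hspa1b was 0.0209, 0.191 and 0.229 in the controls and 0.318, 0.172 and 0.16 in the knockouts at 4 weeks. At 8 weeks it was 0.366, 0.165 and 0.254 in the controls and 31.3, 33.6 and 38.4 in the knockouts. Its difference was 4.72 (SE 0.155, adjusted p = 8.52e-08). Hspa1a had at most 0.123 FPKM in the other 9 libraries and 14.0, 16.0 and 15.8 FPKM in the 8-week knockouts, a difference of 3.92 (SE 0.119, adjusted p = 7.38e-08). Fos, of the AP-1 transcription factor, had 0.38, 0.103 and 0.315 FPKM in the 4-week knockouts, at most 0.554 FPKM in a control, and 9.77, 8.78 and 16.4 FPKM in the 8-week knockouts, a difference of 3.23 (SE 0.28, adjusted p = 0.000289). All 3 genes passed the 1 FPKM filter only through the 8-week knockouts. The rest of the 11 immediate early and heat shock genes did not pass: Jun (1.88), Junb (0.92), Dusp1 (0.67), Jund (-0.61), Dnajb1 (-0.22), and Hspa8, Hsph1 and Ier2 (0.18 to 0.19). The pair of Hspa1 genes is near-identical, so their single values are uncertain. Their promoters are shown for that likeness and for the core of the heat shock element, GAANNTTC, in capitals.

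Hspa1b: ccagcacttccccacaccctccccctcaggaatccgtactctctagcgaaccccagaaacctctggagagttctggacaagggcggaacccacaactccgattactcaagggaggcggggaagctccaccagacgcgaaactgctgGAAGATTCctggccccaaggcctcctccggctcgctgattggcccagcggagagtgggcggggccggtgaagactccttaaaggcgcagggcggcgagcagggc

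Hspa1a: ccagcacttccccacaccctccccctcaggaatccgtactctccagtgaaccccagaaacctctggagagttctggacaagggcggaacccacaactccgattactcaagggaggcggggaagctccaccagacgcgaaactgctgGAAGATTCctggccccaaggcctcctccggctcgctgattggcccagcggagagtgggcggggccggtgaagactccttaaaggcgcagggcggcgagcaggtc

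The promoters (chr17:34959239-34959488, minus strand, and chr17:34972157-34972406, minus strand, GRCm38.p6) were identical at 247 of 250 bases, and each held 1 match, beginning 104 bases before the start. The motif reads the same on both strands, and 6.69% of the 32851 RefSeq promoters of that length held it.

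Igf2bp3 (ENSMUSG00000029814, mm10 chr6:49085223-49214957, minus strand), an RNA-binding protein of fetal blood cells, differed mainly in its controls. FPKM of Igf2bp3 was 8.94, 10.2 and 9.65 in the controls and 14.7, 17.0 and 13.8 in the knockouts at 4 weeks. At 8 weeks it was 0.38, 0.276 and 0.317 in the controls and 18.7, 19.7 and 15.9 in the knockouts. Knockouts and controls did not overlap at either age, the knockouts of the 2 ages overlapped, and the controls were far lower in the 8-week table. The effect was 0.61 at 4 weeks and 3.85 at 8 weeks, a difference of 3.24 (SE 0.132, adjusted p = 5.26e-07). It was called with Hmga1 among 3 genes of the fetal and RNA-binding list, Arid3a (0.025) not passing. H1f0 (ENSMUSG00000096210, mm10 chr15:79028450-79030504, plus strand), a replacement linker histone, changed direction. FPKM of H1f0 was 66.2, 44.4 and 40.0 in the controls and 20.9, 21.1 and 15.8 in the knockouts at 4 weeks. At 8 weeks it was 23.8, 26.4 and 43.0 in the controls and 113, 227 and 128 in the knockouts. The knockouts were below every control at 4 weeks and above every control at 8 weeks, with effects of -1.31 at 4 weeks and 2.27 at 8 weeks and a difference of 3.58 (SE 0.417, adjusted p = 0.00104). The other 5 linker histone genes had differences of 0.073 to 0.69 and did not pass. Ly6c1, a surface protein of the Ly6 family, had 1.88, 6.35 and 2.49 FPKM in the 4-week knockouts, 55.2, 74.8 and 39.6 FPKM in the 8-week knockouts and at most 0.17 FPKM in a control, a difference of 3.73 (SE 0.433, adjusted p = 0.00104). Elfn2 (2.54), Igfbp7 (2.18), Dkkl1 (1.97) and Alox5ap (1.97), the activating protein of leukotriene synthesis, completed the 10 largest positive differences among called protein-coding genes with a name. Dkkl1 passed the filter only through the 8-week knockouts. Igfbp7 rested on uneven knockouts of 3.24, 2.39 and 13.2 FPKM, passed the filter only through them and lost its call with the sex term and in 8 of 12 fits with a library left out.

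**Figure D2:**
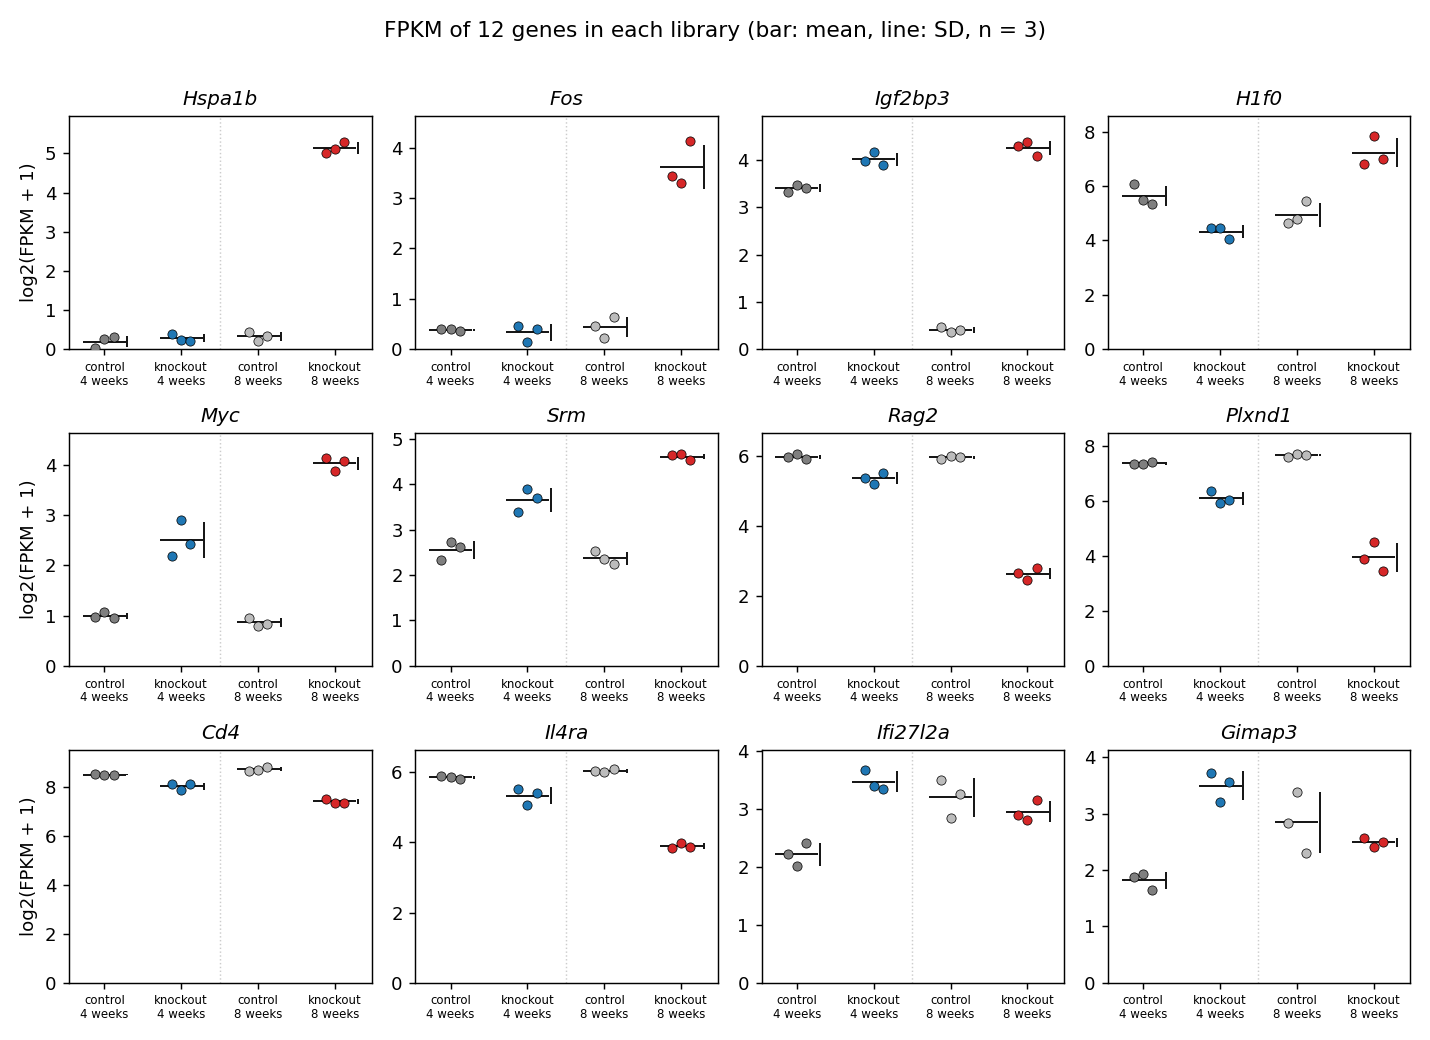
log2(FPKM + 1) of 12 genes (y axis) in each library of the 4 groups (x axis), with points for libraries, bars for means and lines for SD (n = 3). Hspa1b and Fos are near 0 outside the 8-week knockouts, Myc and Srm step up and Rag2 and Plxnd1 step down from controls through 4-week to 8-week knockouts, and H1f0 changes sides.

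No listed metabolic gene was called lower in the difference, and most of the nuclear ones did not pass. Of 13 mitochondrially encoded genes 9 were called higher (69.2%, against 8.7% over all genes), with a median difference of 0.66. All 13 were called higher at 8 weeks and 2 at 4 weeks. mt-Nd5, a subunit of complex I, had 656, 669.5 and 709 FPKM in the 4-week and 1131, 1008 and 998 FPKM in the 8-week knockouts, against 559.7, 528 and 508 and 358, 317 and 387 FPKM in the controls. Its difference was 1.21 (SE 0.127, adjusted p = 0.000663), and that of its neighbour on the opposite strand, mt-Nd6, whose end it overlaps, was 1.27 (adjusted p = 0.000668). mt-Nd4l (1.06, adjusted p = 0.0545) did not pass. mt-Atp8, of the ATP synthase, followed among called members (0.85, adjusted p = 0.0268), a call lost with the sex term, with array weights and without control replicate 1 or 2 or knockout replicate 1 at 4 weeks or control replicate 3 at 8 weeks. The 9 calls were 5 under same-sum scaling, 4 without control replicate 2 at 4 weeks, and 5 without control replicate 3 or knockout replicate 1 at 4 weeks or control replicate 1 or 2 or knockout replicate 1 at 8 weeks. Of 23 nuclear genes of oxidative phosphorylation 4 were called higher (17.4%, against 8.7% over all genes), and 21 differences were positive (median 0.17). At 8 weeks 15 of the 23 were called higher in the knockouts and none lower. Ndufb9 (0.65) and Cox6c (0.61), the pair with the largest differences, lie on chromosome 15. Uqcrc2 (0.34, adjusted p = 0.049) lost its call in 11 of 12 fits with a library left out, and 2 members were called with the sex term or in 7 of those fits. Of 16 glycolysis genes 2 were called higher (12.5%), Tpi1 (1.12, adjusted p = 0.049) and Hk2 (0.76, adjusted p = 0.0412). Neither Tpi1 nor Hk2 was called with the sex term, under same-sum scaling or in 8 of 12 fits with a library left out. Of the 16 differences 15 were positive (median 0.34). Hk2 passed the filter only through the 8-week knockouts, at 1.16, 2.09 and 1.08 FPKM against at most 0.748 FPKM elsewhere.

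Survival genes mostly did not pass, and their called shares were not far from those over all genes. Of 12 BCL2 family genes the antiapoptotic genes Bcl2 (-0.81, adjusted p = 0.0268) and Mcl1 (-0.74, adjusted p = 0.00709) were called lower and Bid (0.57, adjusted p = 0.00942), which promotes cell death, higher. Mcl1 had 124, 103 and 95.5 FPKM in the controls and 73.0, 60.7 and 69.2 FPKM in the knockouts at 8 weeks, after 99.5, 96.0 and 89.2 FPKM in the 4-week knockouts. Bcl2 lost its call with the sex term and in 6 of 12 fits with a library left out, and 5 members were called lower without knockout replicate 2 at 4 weeks. Of 14 p53 pathway genes Cdkn1a and Trp53 itself (0.34, adjusted p = 0.0223) were called higher and Trp53inp1 (-0.50, adjusted p = 0.0232) lower, while Mdm2 (-0.26), Bbc3 (-0.66) and Bax (0.48) did not pass. Trp53 lost its call under same-sum scaling and without control replicate 2 or 3 or knockout replicate 1 at 4 weeks or control replicate 1 at 8 weeks, and Trp53inp1 with the sex term and without control replicate 2 or 3 at 4 or 1 at 8 weeks.

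Some effects of 4 weeks were smaller or missing at 8 weeks. Of 14 interferon-stimulated genes 11 were called higher in the knockouts at 4 weeks, and 3 higher and 1 lower at 8 weeks. In the difference 6 were called lower (42.9%, against 8.69% over all genes, median -0.29). Ifi27l2a, one of the strongest interferon targets in mice, had 3.67, 3.04 and 4.32 FPKM in the controls and 11.8, 9.50 and 9.21 FPKM in the knockouts at 4 weeks, and 10.3, 6.18 and 8.61 FPKM in the controls and 6.42, 6.01 and 7.92 FPKM in the knockouts at 8 weeks. The groups did not overlap at 4 weeks and overlapped at 8 weeks, the control values being higher in the 8-week table, and the difference was -1.51 (SE 0.242, adjusted p = 0.004). Rtp4 (-0.99, adjusted p = 0.0105) and Igtp (-0.67, adjusted p = 0.0191) had the same form: control FPKM was 1.58, 1.20 and 1.26 at 4 and 2.90, 3.99 and 4.22 at 8 weeks for Rtp4, and 10.8, 11.2 and 10.7 and 18.3, 20.1 and 19.6 for Igtp. With the sex term 2 were called lower and 1 higher, and without control replicate 2 or 3 at 4 weeks 3 and 2 were called lower. Stat2 was the member called lower at 8 weeks. In the list of mature single-positive T cells 12 of 14 were called higher at 4 and 8 at 8 weeks, and 5 were called lower in the difference (35.7%). Gimap3, a GTPase of lymphocyte survival, had 2.65, 2.80 and 2.12 FPKM in the controls and 12.2, 8.22 and 10.8 FPKM in the knockouts at 4 weeks, and 6.16, 9.47 and 3.93 FPKM in the controls and 4.90, 4.30 and 4.63 FPKM in the knockouts at 8 weeks, with a difference of -2.04 (SE 0.323, adjusted p = 0.0039). Gimap4 (-0.84), also higher at 4 weeks, was called lower, and so was Ccr7 (-0.93, adjusted p = 0.0327), whose call was lost with the sex term and in 7 of 12 fits with a library left out. Gimap6 (-1.61, adjusted p = 0.0134) and Cd52 (-1.17, adjusted p = 0.00489) had another form, with effects of -0.028 and -0.35 at 4 weeks, not called, and of -1.64 and -1.51 at 8 weeks, both called. Klf2 (0.57) and Itgb7 (-0.32), also of mature cells, were called higher at both ages with differences that did not pass. Cd53, a tetraspanin, had 33.2, 46.4 and 37.9 FPKM in the 4-week knockouts and 18.1, 11.1 and 18.9 in the 8-week knockouts against 16.3, 15.8 and 8.99 in the 8-week controls, a difference of -1.26 (adjusted p = 0.0276) that was lost with the sex term and in 6 of 12 fits with a library left out. Of 11 trafficking and adhesion genes 4 were called lower (36.4%, median -0.38), and 1 with the sex term. The 4 were Cxcr4 (-0.55), a chemokine receptor of thymocytes, and Plxnd1, Ccr9 and Ccr7, which other lists also hold. Of 6 genes of innate-like and cytotoxic cells 2 were called lower (33.3%), Icos (-1.09, adjusted p = 0.00524) and Nkg7 (-0.60, adjusted p = 0.0469). The call of Nkg7 was lost with the sex term and in 11 of 12 fits with a library left out. Nkg7 passed the filter only through the 4-week knockouts, so its call adds no support. Gzma, encoding granzyme A, did not pass (1.84, adjusted p = 0.0555), with 23.9, 25.9 and 25.9 FPKM in the controls and 46.2, 189 and 56.5 FPKM in the knockouts at 4 weeks, and 32.7, 28.3 and 39.8 FPKM in the controls and 335, 326 and 481 FPKM in the knockouts at 8 weeks.

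**Figure D3:**
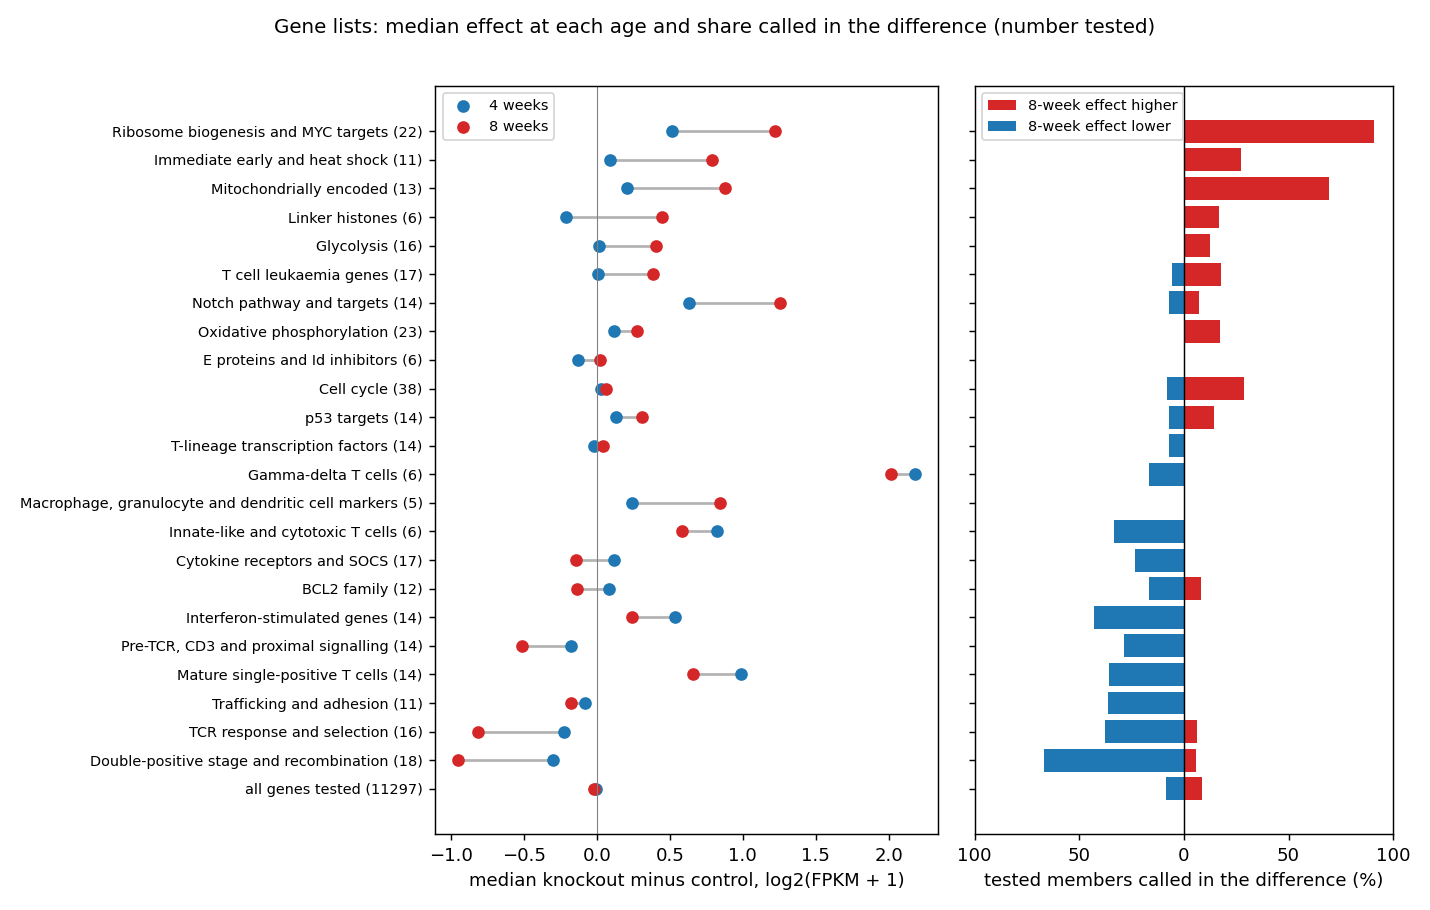
Left, the median knockout minus control over the tested members of each gene list in log2(FPKM + 1), at 4 weeks (blue) and 8 weeks (red); right, the share of tested members called higher (red, to the right) or lower (blue, to the left) in the difference, in percent, with the number tested beside each name. Ribosome biogenesis has 20 of 22 members higher and the double-positive stage 12 of 18 lower, against 8.7% and 8.69% over all genes.

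Several genes with large effects at both ages showed no called difference. Of 14 Notch pathway genes only Myc was called higher and Maml1 (-0.33, adjusted p = 0.0234) lower. Notch1 had effects of 1.43 and 2.31 (difference 0.88, adjusted p = 0.177) and Dtx1 of 2.95 and 3.29 (difference 0.34, adjusted p = 0.54). Hes1 had effects of 1.02 and 2.01 (difference 0.98, adjusted p = 0.0658) and Heyl of 1.24 and 2.41 (difference 1.17, adjusted p = 0.0725), both near the threshold. Il2ra, a marker of earlier thymocytes, had effects of 2.95 and 1.77 with a difference of -1.18 (adjusted p = 0.263). Maml1 lost its call without control replicate 2 or 3 or knockout replicate 1 at 4 weeks, or control replicate 1 at 8 weeks. Among 6 E protein and Id genes none was called in the difference: Id2 had effects of 0.54 and 1.66 (difference 1.13, adjusted p = 0.0788), Id3 of -0.63 and -0.19, and Tcf12 of 0.091 and 0.23. By an unadjusted p under 0.05, 3676 of all tested genes would pass. Of 14 T-lineage transcription factors Myb alone was called (-0.31, adjusted p = 0.0497), a call lost in 10 of 12 fits with a library left out, and Gata3 (0.33), Tcf7 (0.058) and Bcl11b (0.13) did not pass. Of 17 genes altered in T cell leukaemia Myc, Jak3 (0.68, adjusted p = 0.00991) and Etv6 (0.49, adjusted p = 0.04, lost with the sex term, under same-sum scaling and in 9 of 12 fits with a library left out) were called higher and Jak1 (-0.36) lower.

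Some markers of other cells were higher in the 8-week knockouts. The summed FPKM of 16 macrophage, granulocyte and dendritic cell genes was 3.07 to 3.81 in controls and 5.3 to 7.79 in knockouts at 4 weeks, and 4.7 to 8.11 and 11.2 to 20.3 at 8 weeks. Mpo, Elane, S100a8 and S100a9 were at 0 in all 8-week knockouts, and of the 5 tested none was called in the difference. At 8 weeks H2-Ab1 had 3.28 to 7.11 FPKM in knockouts against 0.745 to 0.895 in controls, and Itgam 0.937 to 2.42 against 0.293 to 0.464. Lyz2, H2-Aa, Cd68 and Cd74 overlapped between the 8-week groups. Csf1r, Adgre1, Itgax, Siglech and Xcr1 had at most 0.195 FPKM in any library. The summed FPKM of 15 innate-like and cytotoxic genes was 33.5 to 35.6, 63.2 to 208, 39.2 to 49.2 and 354 to 501 in the same order of groups, Gzma making up most of it, with Gzmk at 0 throughout. Of 12 B cell genes Pax5, Ms4a1, Ebf1 and Igll1 were at 0 in all 8-week knockouts, but had at most 0.089 FPKM in the 8-week controls. The sum was 100 to 141 in the 8-week knockouts against 186 to 244 in the 8-week controls. Ighm made up most of it, with 94.9 to 128 against 178 to 213 FPKM. Cd79b was lower too (0 to 0.081 against 5.13 to 6.61 FPKM), while Igkc overlapped (0.646 to 20.4 against 1.43 to 22.2 FPKM). Of 6 gamma-delta T cell genes 1 was called lower, and the constant segment Tcrg-C2 ranged from 4.29 to 114 FPKM among the 8-week knockouts. Of 10 erythroid genes, Tfrc aside, Hba-a1 (-1.28) and Hbb-bs (-1.04) were tested and did not pass, so the list gives 1 call in 3 tested. The 12 thymic stroma genes summed to 9.2 to 10.9 FPKM in controls and 11.8 to 13.7 in knockouts at 4 weeks. At 8 weeks they summed to 8.77 to 9.42 and 11.6 to 15.1, without overlap at either age. Pecam1 made up most of each sum, with 7.18 to 7.94 FPKM in controls and 11.1 to 14.8 in knockouts at 8 weeks. Epcam was lower in the knockouts at 4 weeks (0.261 to 0.317 against 1.23 to 1.29 FPKM) and overlapped at 8 weeks. Neither of these 2 tested genes was called in the difference. The 16 mature T cell genes summed to 131 to 135 FPKM in controls and 170 to 196 in knockouts at 4 weeks, and to 181 to 188 and 135 to 217 at 8 weeks. The part of such cells in the differences above was not tested.

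Chromosome 15 stood out among the autosomes. Of its 439 tested genes 135 were called higher in the difference (30.8%) and 6 lower (1.37%), against 3.43% to 10.9% and 4.16% to 12.8% for the other autosomes. The median effect of its genes was 0.25 at 4 and 0.57 at 8 weeks. Relative to the autosome median of the library, its genes lay at -0.02 to 0.021 in the 6 controls, at 0.27 to 0.30 in the 4-week knockouts and at 0.57 to 0.73 in the 8-week knockouts on the log2 scale. The 3 groups of values were apart, and every knockout library carried the shift. Myc, H1f0, Ly6c1, Elfn2, Ndufb9 and Cox6c lie on this chromosome, and what share of their differences follows the whole chromosome was not tested. Without chromosome 15 in the fit 825 genes were higher and 943 lower. On the mitochondrial genome 10 of 18 tested genes were called higher.

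**Figure D4:**
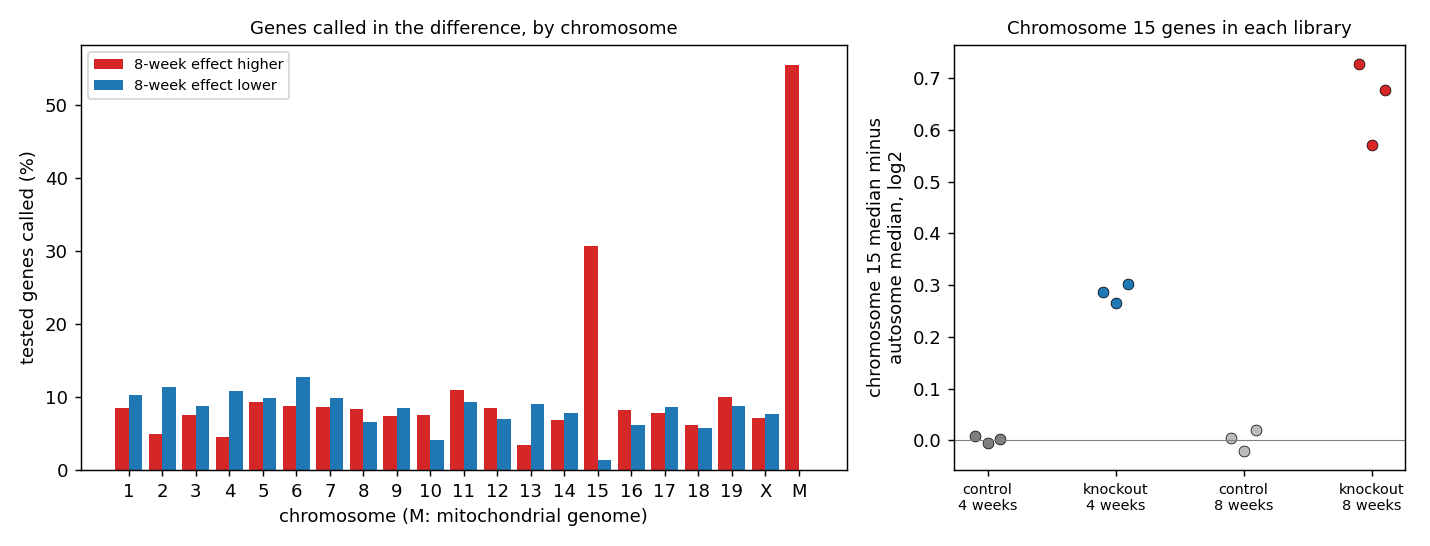
Left, the share of tested genes called higher (red) and lower (blue) in the difference by chromosome, in percent; right, the median of chromosome 15 genes minus the autosome median in each library, in log2 relative to the controls of the same age (points are libraries, 3 per group). Chromosome 15 has 30.8% higher against 1.37% lower, and the 8-week knockouts lie at 0.57 to 0.73.

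In the knockouts, T cell receptor beta variable segments were less even, and at 8 weeks fewer reached 1 FPKM than in the controls. How many clones of T cells these segments stand for was not tested. Of 21 segments, 9 were listed at 0 in all 12 libraries, controls included, so the shares rest on the other 12. In the controls of both ages the most abundant segment took 18.6% to 22.5% of the summed Trbv FPKM, and 12 segments reached 1 FPKM in each library. At 4 weeks the leading segment took 25.8% (Trbv19), 49.5% (Trbv20) and 49.3% (Trbv1) in knockout replicates 1, 2 and 3, with 12, 10 and 12 segments at 1 FPKM or more. At 8 weeks it took 78.2% (Trbv1), 66.9% (Trbv29) and 55.6% (Trbv2), with 4, 5 and 7 segments at 1 FPKM or more. Every knockout was above every control in this share, each 8-week knockout above each 4-week knockout, and the leading segment differed between the 3 libraries of each age. Knockout replicate 2 at 8 weeks had a summed Trbv FPKM of 197, against 1718 and 2457 in the others and 1614 to 1943 in the controls. Of 182 tested receptor segments 23 were called lower in the difference and none higher, 15 of them among 63 Trav segments. Over all tested genes 8.69% were called lower and 8.7% higher, and whether the segments differ from that share was not tested. Segments of a family share sequence, so single values are uncertain, and FPKM of a segment does not count cells.

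**Figure D5:**
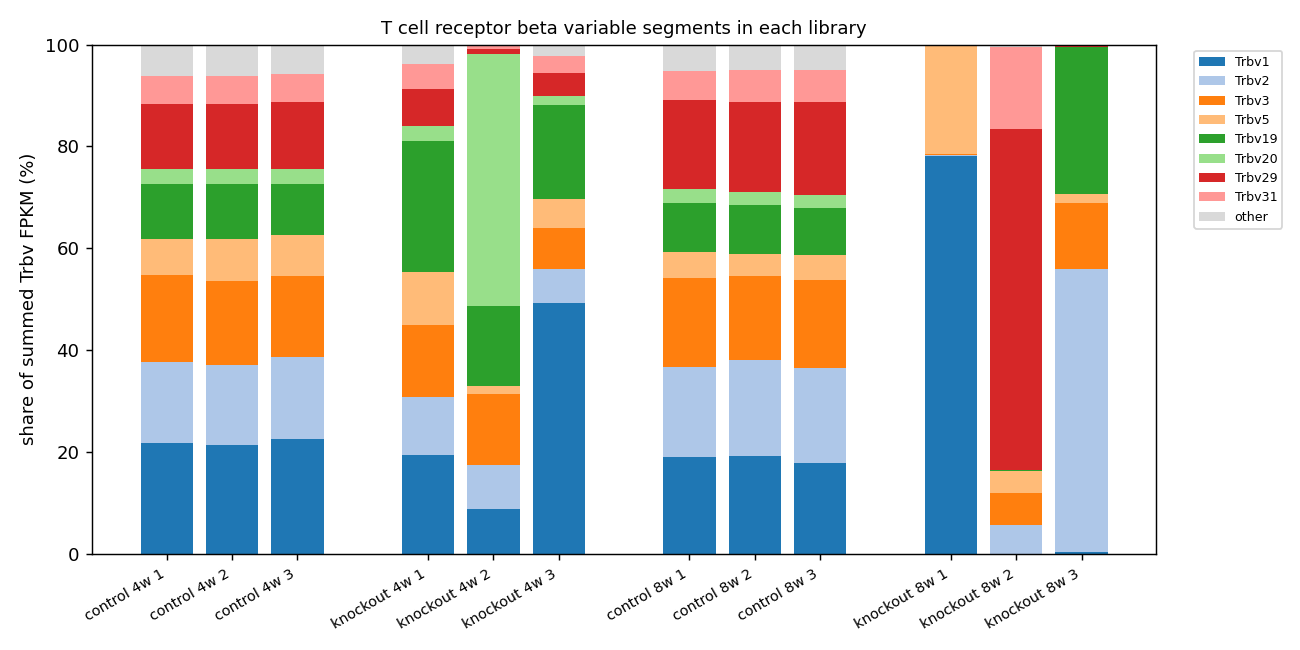
Share of the summed Trbv FPKM held by each of 8 named segments and by all others (y axis, percent) in each library (x axis; w stands for weeks). No segment holds over 22.5% in a control, Trbv29 takes a larger share in the 8-week than in the 4-week controls, and 1 segment holds 55.6% to 78.2% in each 8-week knockout.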

How the data were processed

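RNA-seq values were analysed from 12 libraries of thymic CD4+CD8+ cells, 3 per genotype and age, grouped by their labels; the other 10 libraries of the series were not used here. The authors deposited 1 table of FPKM for each age, normalized separately. The submitters' processing notes name Trimmomatic 0.33, STAR, HTSeq 0.6.1, DESeq2 and the mm10 genome, without roles; the annotation, gene lengths and strand setting are not given in the sources used here, so overlapping and antisense genes cannot be separated. Columns were matched to samples by name, and 42546 of 43430 gene identifiers matched a GENCODE M21 symbol. Values were taken as log2(FPKM + 1), over genes with at least 1 FPKM in 3 libraries of either table, and fold changes on this scale understate changes of low genes. limma 3.58.1 (R 4.3.3) with a mean-variance trend fitted 4 group means, and the interaction was tested with Benjamini-Hochberg adjustment at 0.05. Each age's effect was fitted in its own 6 libraries. A gene's constant offset between the tables cancels in the difference. The test was checked on simulated data. No 2 libraries had identical values (highest correlation 0.996). Named genes were Tcf3, the 10 highest and 10 lowest called differences among protein-coding genes with a name, up to 3 called members of each list with the largest differences, and the 3 smallest p in each direction. Some genes the rule or lists hold are not reported here. Other genes were chosen after their values were seen. The comparison and the gene lists were chosen with earlier results of these data known. The alternatives were other pseudocounts, filters and scalings, array weights, a replicate block, chromosome 15 or each library left out and, chosen after seeing the data, a term for inferred sex.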

Additional observations from a re-analysis of the deposited data

Results flagged for a closer look

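The genes below are listed because the interaction test called the knockout effect at 8 weeks different from that at 4 weeks (limma, adjusted p under 0.05, 3 libraries per group). Each value is the difference of effects on the log2 scale. Hspa1b, Hspa1a, Fos, Igfbp7, Dkkl1 and Hk2 passed the 1 FPKM filter only through the 8-week knockouts, and Nkg7 only through the 4-week knockouts. The calls of these genes therefore add no support. Positive differences with effects of the same sign at both ages were Hspa1b 4.72, Hspa1a 3.92, Ly6c1 3.73, Igf2bp3 3.24, Elfn2 2.54, Igfbp7 2.18, Dkkl1 1.97, Alox5ap 1.97, Myc 1.66, mt-Nd6 1.27, mt-Nd5 1.21, Tfrc 1.20, Srm 1.15, Tpi1 1.12, Mybbp1a 1.08, Polr1b 1.04, Cdk6 1.02, mt-Atp8 0.85, Hk2 0.76, Jak3 0.68, Ndufb9 0.65, Cox6c 0.61, Hmga1 0.59, Bid 0.57, Etv6 0.49, Trp53 0.34 and Uqcrc2 0.34. Positive differences with effects of opposite sign were H1f0 3.58, Fos 3.23 and Cdkn1a 1.54. Negative differences with effects of the same sign at both ages were Tdrp -2.77, Arl5c -2.71, Rag2 -2.71, Plxnd1 -2.46, Esrp2 -2.18, Cd69 -2.17, Adamts6 -2.03, Ap3m2 -1.98, Gpr171 -1.71, Il4ra -1.63, Gimap6 -1.61, Btg2 -1.38, Cd53 -1.26, Cd52 -1.17, Ccr9 -1.06, Egr3 -1.04, Rtp4 -0.99, Il21r -0.83, Bcl2 -0.81, Nkg7 -0.60, Cd247 -0.45, Ptprc -0.45 and Myb -0.31. Negative differences with effects of opposite sign were Aim2 -2.19, Gimap3 -2.04, Ifi27l2a -1.51, Ccnd2 -1.28, Icos -1.09, Ccr7 -0.93, Mcl1 -0.74, Igtp -0.67, Trp53inp1 -0.50, Tgfbr2 -0.45 and Maml1 -0.33.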

How the results depend on the processing

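Of the 64 named genes called in the difference, 42 were called under every one of the 22 alternatives run for them, and none of 1398 gene and alternative pairs changed sign, while 208 lost significance. The counts of genes called higher in the difference were 621 under same-sum scaling, 594 with the replicate block, 587 with the term for inferred sex, and 524 to 1149 with 1 library left out. Those called lower were 556 with the replicate block, 525 with the sex term and 487 to 1165 with 1 library left out. At 4 weeks genes called higher were 523 without a filter, 466 with the block and 316 to 901 with 1 library left out, and genes called lower 393 at a mean of 5 FPKM, 1003 under same-sum scaling, 1071 with array weights, 380 with the block and 258 to 823 with 1 library left out. At 8 weeks genes called higher were 1553 at a mean of 5 FPKM and 1908 to 2389 with 1 library left out, and genes called lower 1743 to 2521 with 1 library left out. The mean of 5 FPKM tests fewer genes; the cause of the other changes was not tested. Whether the replicate numbers pair libraries is not settled. Deviations of same-numbered libraries correlated weakly, at 0.014, -0.088 and 0.088 at 4 weeks and 0.033, 0.069 and 0.050 at 8 weeks. Those of differently numbered libraries correlated at -0.13 to 0.078 at 4 weeks. At 8 weeks they lay at -0.054 to 0.011, below every same-numbered value. The sex term rests on the 4-week libraries alone, since the sexes do not mix within a genotype at 8 weeks. The 8-week libraries were shallower, which limits low genes there.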
